A study of Mus musculus with 10 samples.

Results

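Tyrosine hydroxylase, the product of Th, makes the precursor of dopamine, and cells with at least 2 unique molecular identifiers (UMIs, each counting 1 captured RNA molecule) of Th numbered 301 of the 32523 cells in 10 single-cell libraries of mouse retina. Of these, 134 devoted at least 0.5% of their UMIs to Calb2, the gene of calretinin, and are called Calb2-high Th cells here. The other 167 lay below that value and are called Calb2-low Th cells. They were set against 15994 cells with at least 2 UMIs of Gad1 and Gad2 together and none of Slc6a9 or Th, called Gad-gated Th-zero cells, and in some comparisons against 4422 cells with at least 2 UMIs of Slc6a9 and none of Gad1, Gad2 or Th, called Slc6a9-gated Th-zero cells. Gad1 and Gad2 encode the enzymes that make GABA, and Slc6a9 the glycine transporter of glycinergic amacrine cells. The Th cells were chosen by their Th UMIs and split on Calb2, and the Th-zero cells were selected on Gad1, Gad2, Slc6a9 and Th, so the values of these 5 genes are given as description only.

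The series set out to sort the amacrine cells of the mouse retina into molecular types at postnatal day 19. Every library came from the Chx10-cre-GFP strain, in which GFP follows the promoter of a bipolar and progenitor cell gene, and none had a treatment or another genotype. Papain-dissociated cells were sorted as lacking GFP, CD133 and CD73 and as taking up the viability dye Calcein Blue, then captured with 10x Genomics 3′ chemistry. Batch 1 held library 1, batch 2 held libraries 2 to 6 and batch 3 held libraries 7 to 10. Whether each library held different animals is not stated, and p-values here therefore reflect variation among libraries that could be technical in origin.

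As background, amacrine cells are inhibitory interneurons of the inner retina, and a sparse class of them uses dopamine to adjust retinal circuits to light. In dopamine cells Th makes L-DOPA, Ddc (aromatic amino acid decarboxylase) turns it into dopamine, Slc18a2 (the vesicular monoamine transporter) loads it into vesicles and Slc6a3 (the dopamine transporter) takes it back up. Gch1, Pts, Spr, Qdpr and Pcbd1 make or recycle the tetrahydrobiopterin cofactor that Th needs. A further class of Th-positive amacrine cells of the mouse retina is known to make little or no detectable dopamine and to release GABA.

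The promoters of the genes at the 4 steps of the dopamine pathway are shown for reference. No Th cell held transcripts of Ddc and Slc6a3 together. Ddc was in 4 and Slc6a3 in 14 of the 301 Th cells, too few to tell whether they avoid each other. Each run is the 250 bases before the RefSeq start in GRCm38.p6, written along the gene's own strand, and capitals mark a motif match. Th lies at chr7:142899996-142900245 (minus strand), the second Ddc start at chr11:11898145-11898394 (minus), Slc18a2 at chr19:59260628-59260877 (plus) and Slc6a3 at chr13:73536497-73536746 (plus).
Th: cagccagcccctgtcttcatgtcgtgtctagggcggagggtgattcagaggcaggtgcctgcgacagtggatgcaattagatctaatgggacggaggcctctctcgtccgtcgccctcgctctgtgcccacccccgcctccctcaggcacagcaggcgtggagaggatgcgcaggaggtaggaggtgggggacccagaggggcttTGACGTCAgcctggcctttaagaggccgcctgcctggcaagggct
Ddc, second start: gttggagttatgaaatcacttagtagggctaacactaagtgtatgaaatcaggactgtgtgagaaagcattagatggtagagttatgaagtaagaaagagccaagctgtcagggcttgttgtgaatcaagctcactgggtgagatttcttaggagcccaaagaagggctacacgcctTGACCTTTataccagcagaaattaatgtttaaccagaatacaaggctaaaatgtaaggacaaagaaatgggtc
Slc18a2: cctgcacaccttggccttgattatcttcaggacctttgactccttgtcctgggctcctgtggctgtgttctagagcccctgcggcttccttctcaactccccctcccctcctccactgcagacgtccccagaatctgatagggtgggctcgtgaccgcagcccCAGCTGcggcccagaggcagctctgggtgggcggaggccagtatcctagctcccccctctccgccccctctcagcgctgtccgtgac
Slc6a3: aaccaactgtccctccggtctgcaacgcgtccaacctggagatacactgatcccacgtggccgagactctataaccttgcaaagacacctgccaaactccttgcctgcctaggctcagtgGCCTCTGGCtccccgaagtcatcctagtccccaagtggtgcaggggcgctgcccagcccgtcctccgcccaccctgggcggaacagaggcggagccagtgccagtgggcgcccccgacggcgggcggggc
Matches were sought on both strands. The cAMP response element TGACGTCA stood 45 to 38 bases before the Th start and in 1.55% of all 32851 promoter windows. The Nr4a-family motif AAAGGTCA, whose reverse complement is in capitals, stood 73 to 66 bases before the second Ddc start and in 1.34% of windows. The E-box CAGCTG stood 87 to 82 bases before the Slc18a2 start and in 13% of windows. The Tfap2 motif GCCNNNGGC stood 130 to 122 bases before the Slc6a3 start and in 13.7% of windows. None of these motifs was found in the windows of the first Ddc start or of Crhr2. A match describes letters in a window and says nothing of binding in these cells.

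Th cells were rare in every library. They made up 0.985% ± 0.311 of cells (SD, n = 10 libraries), from 0.471% in library 5 to 1.35% in library 10, with 9 to 41 cells per library. Calb2-high cells were 0.440% ± 0.144 and Calb2-low cells 0.545% ± 0.210 of all cells. In batch 3 the Calb2-low share ran from 0.727% to 0.845%, and in batch 2 from 0.269% to 0.543%, so the libraries of these batches did not overlap. The Calb2-high share averaged 0.483% ± 0.0788 in batch 3 and 0.388% ± 0.187 in batch 2, which overlapped. These shares moved with depth: 2.78% of cells of at least 12000 UMIs and 0.183% of cells under 3000 UMIs reached 2 Th UMIs. After every cell was thinned to 3000 UMIs, Th cells were 0.559% ± 0.123 of the cells kept.

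Libraries held 950 to 4738 cells and 6302659 to 26028492 UMIs, and the median cell held 4210 UMIs. The median was 9578.5 UMIs in Calb2-high, 6430 in Calb2-low, 5350.5 in Gad-gated Th-zero and 3634 in Slc6a9-gated Th-zero cells. Of 923 barcodes found in more than 1 library, 18 belonged to Th cells and 2 were shared by 2 Th cells. All 6 pan-amacrine markers were present, summing to 3410, 5661 and 5137 CPM (UMIs of a gene per 1000000 UMIs) in Calb2-high, Calb2-low and Gad-gated Th-zero cells. Other classes were at or below the level of the Gad-gated Th-zero cells: rod markers summed to 48.8 and 46.5 CPM in Calb2-high and Calb2-low cells against 55.2 CPM, bipolar markers to 215 and 259 against 332 CPM, and Müller glia markers to 472 and 1012 against 1290 CPM. Exceptions were microglia markers, at 9.90 CPM in Calb2-high against 5.48 CPM with 6 of 7 genes at 0, and the horizontal-cell list, which holds the amacrine genes Calb1 and Tfap2b, at 2407 CPM in Calb2-low against 1417 CPM. Vascular markers were at 36.0 CPM in Calb2-low against 34.2 CPM.

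**Figure D1:**
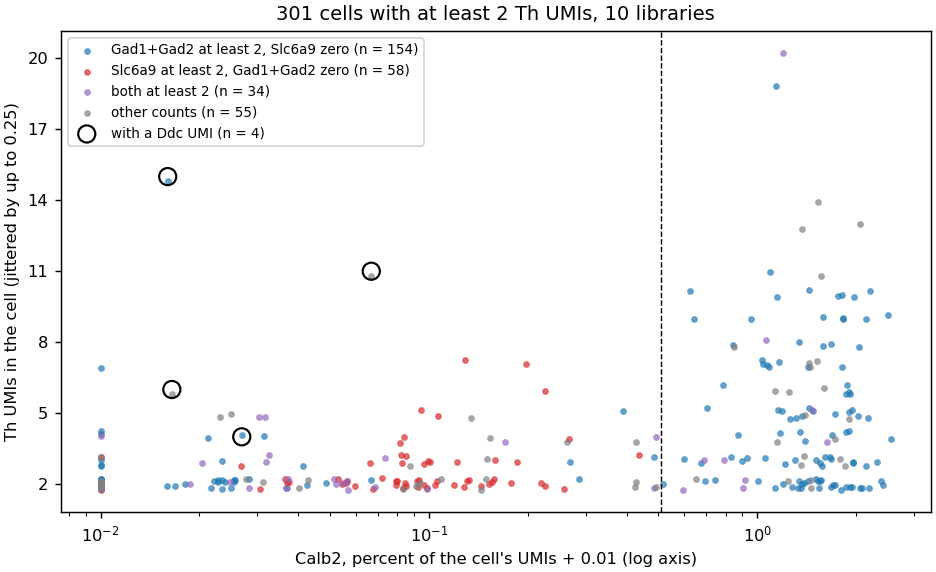
Calb2 as a percentage of the cell's UMIs, with 0.01 added (x axis, log scale), and Th UMIs (y axis) in the 301 Th cells, coloured by transmitter gate, with the 4 cells that hold Ddc UMIs ringed and the 0.5% split dashed. Few cells, 24 in all, lie between 0.25% and 0.75%; no cell of the Slc6a9 gate lies right of the split, and all 4 ringed cells lie left of it.

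Calb2 separated the Th cells with few cells near the split. The median was 1.44% of UMIs in Calb2-high and 0.0385% in Calb2-low cells. The lowest Calb2-high cell stood at 0.506% and the highest Calb2-low cell at 0.481%. Th itself reached a median of 4 UMIs and at most 20 in Calb2-high cells, and a median of 2 and at most 15 in Calb2-low cells. Exactly 2 UMIs, the lowest count admitted, were found in 148 cells, of which 37 were Calb2-high and 111 Calb2-low, and a further 516 cells stood just outside at 1 UMI. Of those 516, 15.1% were at or above the Calb2 split, against 3.63% of all cells. Crhr2, a receptor of the corticotropin-releasing hormone family and a marker given for these cells, followed Calb2 closely: 8 of 11 Th cells with Calb2 at 0.5% to 0.75%, 6 of 13 at 0.25% to 0.5% and 0 of 154 below 0.25% held a Crhr2 UMI.

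The Th cells divided further by transmitter. Among Calb2-high cells, 102 passed the Gad gate, 9 had at least 2 UMIs of the Gad pair and at least 2 of Slc6a9, 23 fell under none of these rules, and 0 passed the Slc6a9 gate, which allows a share of up to 2.24%. Among Calb2-low cells, 52 passed the Gad gate, 58 the Slc6a9 gate, 25 had at least 2 UMIs of each and 32 fell under none. The Calb2-low cells showing both were deep, with a median of 11182 UMIs, and among all cells the share showing both climbed with depth, through 1.69%, 5.11%, 10.7% and 30.0% of cells below 3000, below 6000, below 12000 and above. No doublet caller was run; 16.4% of Calb2-high and 14.4% of Calb2-low cells lay in the top 5% of UMIs of their library, against 4.90% of Gad-gated Th-zero cells. The part of doublets in the mixed cells was not tested. Slc32a1, the vesicular transporter of GABA and glycine, was detected in 134 of 134 Calb2-high cells, 161 of 167 Calb2-low cells and 14422 of 15994 Gad-gated Th-zero cells.

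**Figure D2:**
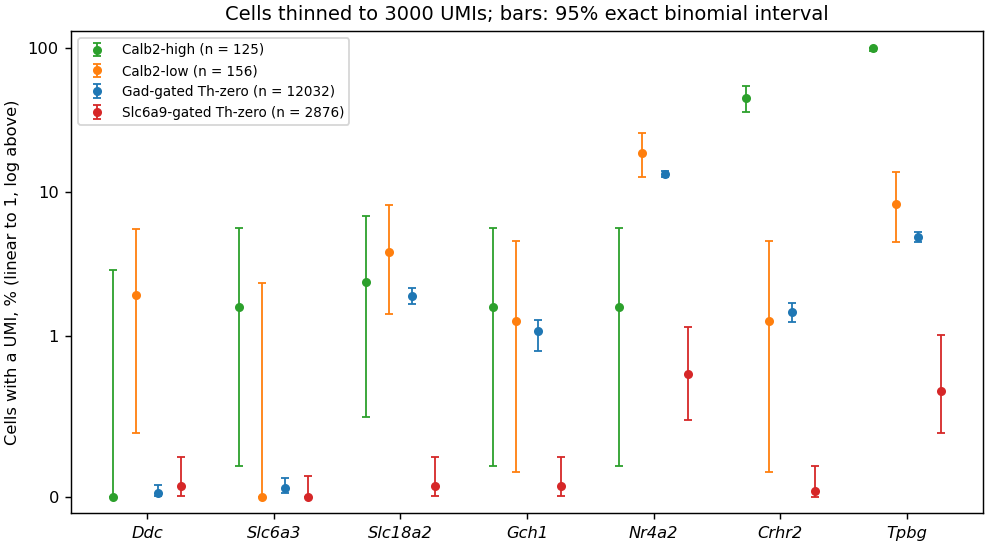
Percentage of cells with at least 1 UMI after thinning each cell to 3000 UMIs, for genes of dopamine handling and for markers, in Calb2-high Th, Calb2-low Th, Gad-gated Th-zero and Slc6a9-gated Th-zero cells; bars are exact 95% binomial intervals. Tpbg and Crhr2 stand high in Calb2-high cells, Nr4a2 is lower there than in Calb2-low and Gad-gated Th-zero cells, and Ddc, Slc6a3, Slc18a2 and Gch1 lie below 4% in every group.

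Ddc was not detected in the Calb2-high cells, and Slc6a3 not in the Calb2-low cells. Ddc had 0 UMIs in all 134 cells, which allows a share of up to 2.24%, against 4 of 167 Calb2-low cells (2.40%, 10 UMIs) and 0.0250% of Gad-gated Th-zero cells. In pooled counts Ddc was at least 3.28-fold lower in Calb2-high than in Calb2-low cells (a floor of 3 UMIs over the group). Slc6a3 ran the other way, with 16 UMIs in 14 Calb2-high cells (10.4%) and 0 in 167 Calb2-low cells, which allows up to 1.80%. Over the whole data set Slc6a3 was in 87 cells. Of these, 67 had no Th UMI, and 20 of those 67 lay at or above the Calb2 split. Slc6a3 was thus not confined to Th cells. Its pooled level was 12.2 CPM in Calb2-high cells, at least 5.42-fold higher than in Calb2-low cells. Such limits cover counting error only.

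Depth differed between these groups, so shares were also compared at 3000 UMIs per cell, in 125 Calb2-high, 156 Calb2-low, 12032 Gad-gated Th-zero and 2876 Slc6a9-gated Th-zero cells. Ddc was then in 0%, 1.92%, 0.0249% and 0.0695% of these groups in that order, and Slc6a3 in 1.6%, 0%, 0.0582% and 0%. Across 9 libraries the Ddc share of Calb2-high minus Calb2-low cells was -2.39 points (0% against 2.39% ± 3.99), with p = 0.25 in an exact two-sided sign-flip permutation test and 0.5 after adjustment over 2 tests. The Slc6a3 difference was 1.62 points with an exact permutation p of 0.5 before and after adjustment. Ddc differed in 3 libraries and Slc6a3 in 2, each time in 1 direction, so these p-values are the smallest the test could give and the thinned shares allow no test. Without thinning, Slc6a3 differed by 11.1 points and was higher in Calb2-high cells in 8 libraries (exact permutation p = 0.00781, the smallest these 8 allow), with Calb2-high cells the deeper. Ddc without thinning differed by -2.94 points and was lower in 4 libraries (exact permutation p = 0.125, the smallest these 4 allow). In the summed counts of all UMIs, Slc6a3 was higher and Ddc lower in Calb2-high than in Calb2-low cells (edgeR adjusted p = 0.000142 and 0.00967). That fit had no filter on low counts, since both genes were too sparse for the filtered fit. The Ddc call rests on 10 UMIs in 4 cells, and the pooled limits above give the sizes. Slc6a3 in Calb2-high cells also exceeded Gad-gated Th-zero cells, 12.2 against 0.569 CPM pooled, by a log2 change of 4.25 ± 0.51 (SE; edgeR adjusted p = 4.74e-13 in the same unfiltered fit).

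Slc18a2, the other marker given for these cells, was sparse on both sides of the split. It had UMIs in 8.96% of Calb2-high, 8.38% of Calb2-low, 3.41% of Gad-gated and, after thinning, 2.4%, 3.85% and 1.91% of the same groups; in Slc6a9-gated Th-zero cells the thinned share was 0.0695%. In Calb2-high cells its change against Gad-gated Th-zero cells was 0.35 ± 0.47 on the log2 scale and did not pass (edgeR adjusted p = 0.882, no low-count filter). In Calb2-low cells Slc18a2 rose by 2.84 ± 0.26 against Gad-gated Th-zero cells (edgeR adjusted p = 2.52e-21) and Gch1 by 2.17 ± 0.40 (edgeR adjusted p = 4.68e-06) in that fit, and Slc18a2 was lower in Calb2-high than in Calb2-low cells (-2.48 ± 0.42, edgeR adjusted p = 4.70e-07). Of these Calb2-low UMIs, 60 of 71 for Slc18a2 and 19 of 23 for Gch1 lay in 4 cells, described next. Gch1 gave 1.6%, 1.28% and 1.09% after thinning in Calb2-high, Calb2-low and Gad-gated Th-zero cells. Of the label's 4 markers, Crhr2 thus marked the Calb2-high cells (44.8% thinned, against 1.28% in Calb2-low, 1.47% in Gad-gated and 0.0348% in Slc6a9-gated Th-zero cells), and Slc18a2 was detected in under 10% of the cells of each Th group.

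The 4 Ddc-positive cells carried the Ddc UMIs and most of the Slc18a2 and Gch1 UMIs of the Calb2-low cells. They came from libraries 2, 4, 5 and 8 and held 33254, 22915, 15421 and 5912 UMIs in that order. They had 15, 11, 6 and 4 UMIs of Th, 2, 2, 3 and 3 of Ddc, 25, 9, 19 and 7 of Slc18a2, 9, 7, 1 and 2 of Gch1, and 14, 12, 5 and 1 of Nr4a2, a nuclear receptor of dopamine neurons. Slc6a3 was at 0 in all 4. Ddc was seen in 20 other cells of the whole data set, each with 1 UMI and no Th, so more than 1 Ddc UMI occurred in these 4 cells alone. The 3 deepest lay in the top 5% of UMIs of their library, and whether any is a doublet was not tested.

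These 4 cells were also rich in Cartpt, the precursor of the peptide CART, a pattern noticed after their values were seen. Cartpt took 7.15%, 7.37%, 5.27% and 2.40% of their UMIs. Only 2 other Th cells reached 2% of UMIs, shallow ones of 1212 and 1610 UMIs with 2 Th UMIs each. The first held 1 UMI each of Gch1 and Nr4a2, the second 1 of Slc18a2, and neither held Ddc. None of the 134 Calb2-high cells reached 2%, against 4.16% of Gad-gated Th-zero cells. The 6 cells held 5194 of the 5885 Cartpt UMIs of the Calb2-low cells, whose pooled level was 4414 CPM with them and 551 CPM without them, against 134 CPM in Calb2-high and 2525 CPM in Gad-gated Th-zero cells. Ranked by pooled level over Gad-gated Th-zero cells among genes found in all 4 cells, the leading genes besides Ddc were Car4, a carbonic anhydrase (374 against 0.483 CPM), the unnamed locus A230065H16Rik (426 against 1.13 CPM), and Oxtr, the oxytocin receptor (155 against 0.847 CPM). Lower in that ranking, and picked as monoamine genes, were Slc29a4, a low-affinity monoamine transporter (155 against 6.01 CPM), and Maoa, a monoamine oxidase (284 against 20.4 CPM). Maoa was also in 35 of 134 Calb2-high cells, 23 of the other 163 Calb2-low cells and 1698 of 15994 Gad-gated Th-zero cells. Slc29a4 was in 2, 15 and 525 cells of these groups. Car4 was in 0 of 134 Calb2-high cells, 4 of the other 163 Calb2-low cells and 43 of 15994 Gad-gated Th-zero cells, and Oxtr in 0, 1 and 78. These are the values of 4 cells, with no test.

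**Figure D3:**
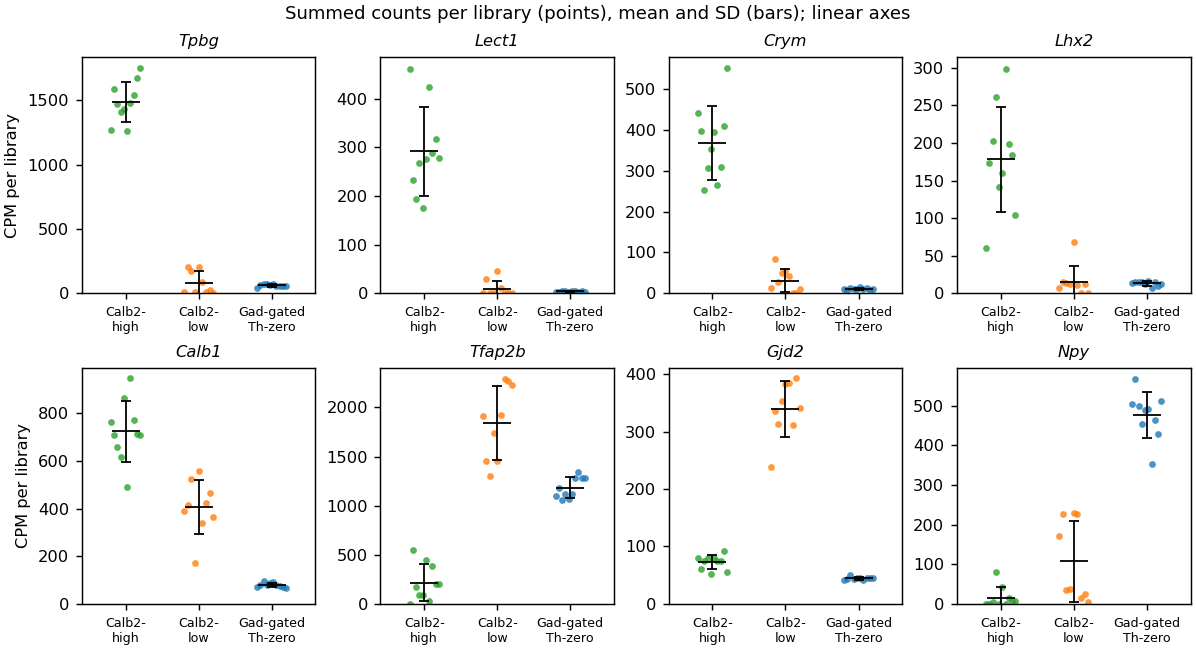
CPM per library of 8 genes in Calb2-high Th cells (10 libraries), Calb2-low Th cells (9) and Gad-gated Th-zero cells (10), with means and SD bars. For Tpbg, Lect1, Crym and Calb1 the Calb2-high libraries lie above every Gad-gated library, for Tfap2b and Npy below, and Gjd2 is highest in Calb2-low cells.

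Calb2-high Th cells differed from the Gad-gated Th-zero cells in 940 of 3740 genes tested (25.1%; edgeR quasi-likelihood test, adjusted p under 0.05), with 487 higher (13%) and 453 lower (12.1%). The median change over all genes tested was 0.00 on the log2 scale. Counts were summed per library and group, and levels are means of the libraries' CPM ± SD. These Calb2-high sums and the Calb2-low sums below share the same Gad-gated Th-zero cells.

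The genes with the largest rises in Calb2-high cells, at most 10 by the naming rule, were higher there in all 10 libraries. Tpbg, a membrane glycoprotein with leucine-rich repeats, had 1257, 1473 and 1747 CPM (lowest, median and highest library) in Calb2-high cells, against 43.1, 61.7 and 73.9 CPM in Gad-gated Th-zero cells. The groups did not overlap, and the log2 change was 4.60 ± 0.13 (edgeR adjusted p = 1.45e-26); 133 of the 134 cells had a Tpbg UMI. Lect1, a secreted cartilage glycoprotein, averaged 292 ± 91.0 in Calb2-high against 3.89 ± 0.973 CPM in Gad-gated Th-zero cells (6.15 ± 0.20, edgeR adjusted p = 7.79e-25). Dio2, a deiodinase that activates thyroid hormone, rose by 5.21 ± 0.31. Crym, which binds that hormone, was at 368 ± 90.4 CPM in Calb2-high against 11.1 ± 2.08 CPM in Gad-gated Th-zero cells (5.0 ± 0.17). The others were Doc2b, a calcium sensor of vesicle release (3.92 ± 0.20), Tmem163, a zinc transporter of vesicles (3.86 ± 0.14), Lhx2, a LIM homeobox factor (3.82 ± 0.21), Spats2l (3.59 ± 0.17) and the transcript RP23-366O14.4 (3.45 ± 0.13). Crhr2 was at 178 ± 41.1 against 6.73 ± 1.62 CPM, given as description.

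Tpbg and Crhr2 were not confined to cells with 2 Th UMIs. The 78 cells with 1 Th UMI and Calb2 above the split had 1512 CPM of Tpbg and 137 CPM of Crhr2. The 970 cells above the split without Th had 437 CPM of Tpbg and 48.8 CPM of Crhr2, and 39.8% of them held Chat, the enzyme of the cholinergic starburst cells.

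Most neuropeptide genes tested were lower in Calb2-high cells. Of 10 genes on the list, which also holds granins, 2 were higher and 7 lower, where 13% and 12.1% of all genes tested were. The median change was -2.12, against 0.00 over all genes tested. The higher ones were the tachykinin gene Tac1, at 1297 ± 535 CPM in Calb2-high against 335 ± 38.7 CPM in Gad-gated Th-zero cells (1.94 ± 0.20, edgeR adjusted p = 2.40e-10), and the granin gene Chgb (1.85 ± 0.08). Npy, a peptide of several amacrine types, averaged 15.7 ± 26.1 CPM in Calb2-high against 476 ± 57.1 CPM in Gad-gated Th-zero cells, and every Calb2-high library lay below every Gad-gated one (-4.64 ± 0.36, edgeR adjusted p = 1.71e-13). Tac2 (-4.60), Cartpt (-4.53), Cck (-3.45) and Vip (-3.43) fell on the log2 scale, each in 10 of 10 libraries; the Tac2 call was lost with the Calb2 split at 0.25%. Each of these peptides marks other amacrine types that the Gad-gated Th-zero cells include. Outside the peptides, the genes with the largest falls were Npnt, an extracellular matrix protein gene (-3.47 ± 0.34), Vstm2b (-3.32 ± 0.31), Arhgap24 (-2.87 ± 0.26), and Serpine2, a protease inhibitor gene (-2.83 ± 0.32). App, the gene of the amyloid precursor protein, was at 20.6 ± 18.9 CPM in Calb2-high against 167 ± 12.5 CPM in Gad-gated Th-zero cells (-2.86 ± 0.22, edgeR adjusted p = 1.06e-13).

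Release proteins fell more often than they rose. Of 25 tested, 2 were higher and 12 lower, with a median change of -0.17. Over all genes tested, the background for each list in this paragraph, 13% were higher and 12.1% lower. Rims1, a scaffold of the release site, fell to 28.2 ± 11.7 CPM in Calb2-high cells, against 187 ± 79.1 CPM in Gad-gated Th-zero cells (-2.74 ± 0.23). Syt4, a synaptotagmin, fell by 2.08, Unc13c, a priming factor, by 1.54 and Cplx3, a complexin, by 1.55. Of 22 voltage-gated channel genes 3 were higher and 9 lower (median -0.35), among them the potassium channel genes Kcna6 (-1.35 ± 0.13) and Kcna1 (-1.17 ± 0.14) and the channel-interacting Kcnip3 (-1.72 ± 0.22). Among the 9 tested receptor genes for GABA and glycine, 4 were lower and 0 higher (median -0.20).

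Glutamate receptors and transcription factors were mixed, where 13% of all genes tested were higher and 12.1% lower. Of 8 glutamate receptor genes 4 were higher and 1 lower (median 0.33): the NMDA receptor subunits Grin2b (1.09 ± 0.14) and Grin2a (0.97 ± 0.13, not called in batch 3 alone) and the AMPA receptor subunit Gria3 (0.95 ± 0.10) rose, and Gria2 fell by 0.66. Of 26 transcription factors 11 were higher and 8 lower. Tfap2e was at 104 ± 23.8 against 21.5 ± 4.19 CPM (2.31 ± 0.18), while its family member Tfap2b, which most amacrine cells express, was at 216 ± 186 against 1182 ± 106 CPM (-2.32 ± 0.18). Nr4a2 fell by 2.71 ± 0.37, with 12.4 ± 15.9 against 83.4 ± 8.83 CPM. Of 27 adhesion and guidance genes 12 were higher and 8 lower (median 0.05), with the protocadherins Pcdh8 (2.61 ± 0.14) and Pcdh10 (2.13 ± 0.14) up and the synaptic organisers Cbln2 (-2.61 ± 0.23) and Cbln4 (-2.24 ± 0.38) down. The purine receptor P2ry1 rose by 3.13 ± 0.17 and the calcium buffer Calb1 by 3.14 ± 0.11.

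The cofactor genes of the dopamine pathway gave no call in Calb2-high cells. Pts, Qdpr and Pcbd1, the 3 cofactor genes of 7 on the synthesis list with enough counts, changed by 0.23 ± 0.18, -0.09 ± 0.12 and 0.18 ± 0.11 (edgeR adjusted p = 0.398, 0.667 and 0.347). Of 10 stress genes of dissociation 2 were higher and 3 lower, where 13% and 12.1% of all genes tested were. Among them Jun was at 1.17 ± 0.10 and Dusp1 at -0.93 ± 0.16.

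**Figure D4:**
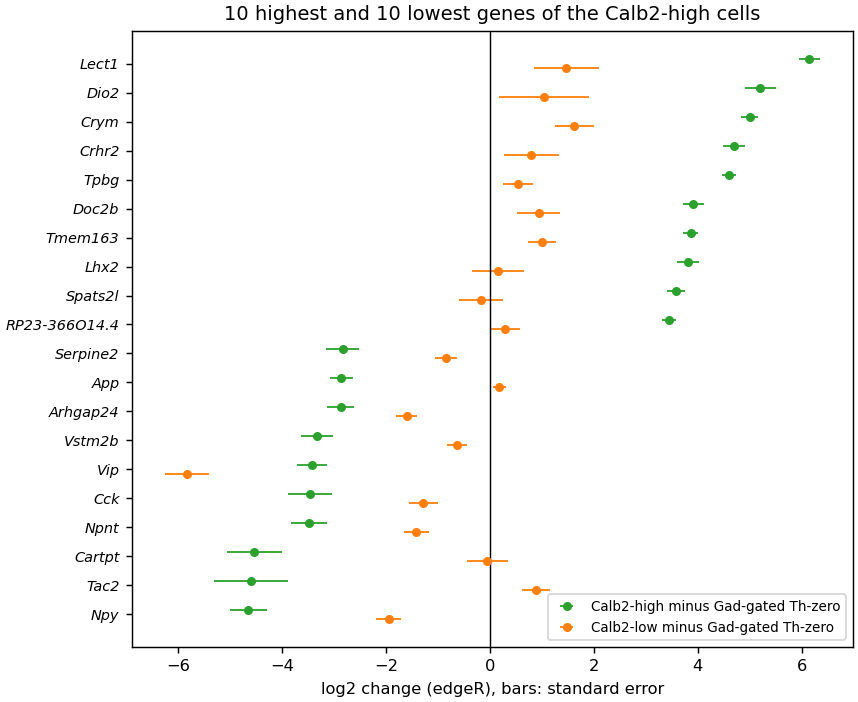
Log2 change (x axis) with SE bars of 20 genes in Calb2-high Th cells and in Calb2-low Th cells, each against the same Gad-gated Th-zero cells. The 10 upper genes, Lect1 at the top, stand at 3.45 or more in Calb2-high cells and nearer 0 in Calb2-low cells, and of the 10 lower genes only Vip lies farther left in Calb2-low cells.

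Set directly against each other, the Th groups differed in 893 of 3740 genes (23.9%), 434 higher in Calb2-high cells (11.6%) and 459 lower (12.3%). Tpbg was at 1486 ± 159 CPM in Calb2-high and 81.9 ± 89.1 CPM in Calb2-low cells (4.06 ± 0.22, edgeR adjusted p = 1.23e-17), and the highest Calb2-low library, at 207 CPM, lay far under the lowest Calb2-high one. Lect1 (4.67 ± 0.35), Dio2 (4.16 ± 0.54), Spats2l (3.76 ± 0.32), Lhx2 (3.65 ± 0.37), Crym (3.37 ± 0.27) and Pcdh8 (3.26 ± 0.26) were higher in 9 of 9 libraries. Tac1 was at 1297 ± 535 against 277 ± 232 CPM (2.09 ± 0.28), Grin2a rose by 1.95 ± 0.23 and Grin2b by 1.81 ± 0.24. Lower in Calb2-high cells were the dopamine receptor gene Drd4, with 2 UMIs in 1 cell and 1.68 ± 5.30 CPM against 111 ± 36.1 CPM, the transcription factors Nfia (-4.85 ± 0.36), Neurod2 (-4.84 ± 0.39) and Tfap2b (-2.96 ± 0.19), and Nr4a2 (-2.89 ± 0.44). Among release proteins Cplx3 fell by 2.53, and of the cofactor genes Qdpr, dihydropteridine reductase, was at 145 ± 45.4 against 310 ± 74.4 CPM (-1.15 ± 0.14). Gjd2, the gap junction gene of AII amacrine cells, was lower by 2.23 ± 0.13, but among Gad-gated Th cells alone the change was 1.05 and not called. The 58 Slc6a9-gated Calb2-low cells held 253 of the 448 Gjd2 UMIs of all Calb2-low cells. No Calb2-high cell passed the Slc6a9 gate, so the whole comparison of the Th groups crosses transmitter classes. Drd4 and Neurod2 had no UMI in Gad-gated Calb2-low cells. With Gad-gated Th cells only, 402 of 3226 genes tested were called.

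Calb2-low Th cells differed from the Gad-gated Th-zero cells in 633 of 3740 genes (16.9%), 320 higher (8.56%) and 313 lower (8.37%). Mapk12 (5.15 ± 0.29), Drd4 (4.48 ± 0.24), Neurod2 (4.08 ± 0.19), Tgfb2 (3.65 ± 0.26), Gjd2 (2.96 ± 0.09) and the carbonic anhydrase gene Car2 (2.77 ± 0.07) led the rises, and Vip (-5.83 ± 0.43) and Car8 (-3.10 ± 0.32) the falls. Qdpr rose to 310 ± 74.4 CPM, against 154 ± 16.8 CPM in Gad-gated Th-zero cells (1.06 ± 0.10), and Pts by 0.64 ± 0.17, a call lost in batch 2 alone. Nr4a2, at 91.0 ± 58.0 against 83.4 ± 8.83 CPM, was not called (0.18 ± 0.21, edgeR adjusted p = 0.63). This comparison crosses transmitter classes, as 58 of the 167 Calb2-low cells passed the Slc6a9 gate. Among the Gad-gated Calb2-low cells Drd4 and Neurod2 had 0 UMIs, Mapk12 had 2 and Tgfb2 1, and Gjd2 changed by -0.35. Of the 146 Drd4 UMIs of all Calb2-low cells, 104 lay in Slc6a9-gated cells. Each class was next compared with Th-zero cells of its own gate, and these 2 comparisons were chosen after the data had been seen. Of the dopamine synthesis list, 1 gene was tested for the Slc6a9 gate and was called lower in the Th cells (log2 change -0.48). For the Gad gate 0 genes of that list were tested, so the rises of Qdpr and Pts above rest on the comparison across classes.

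**Figure D5:**
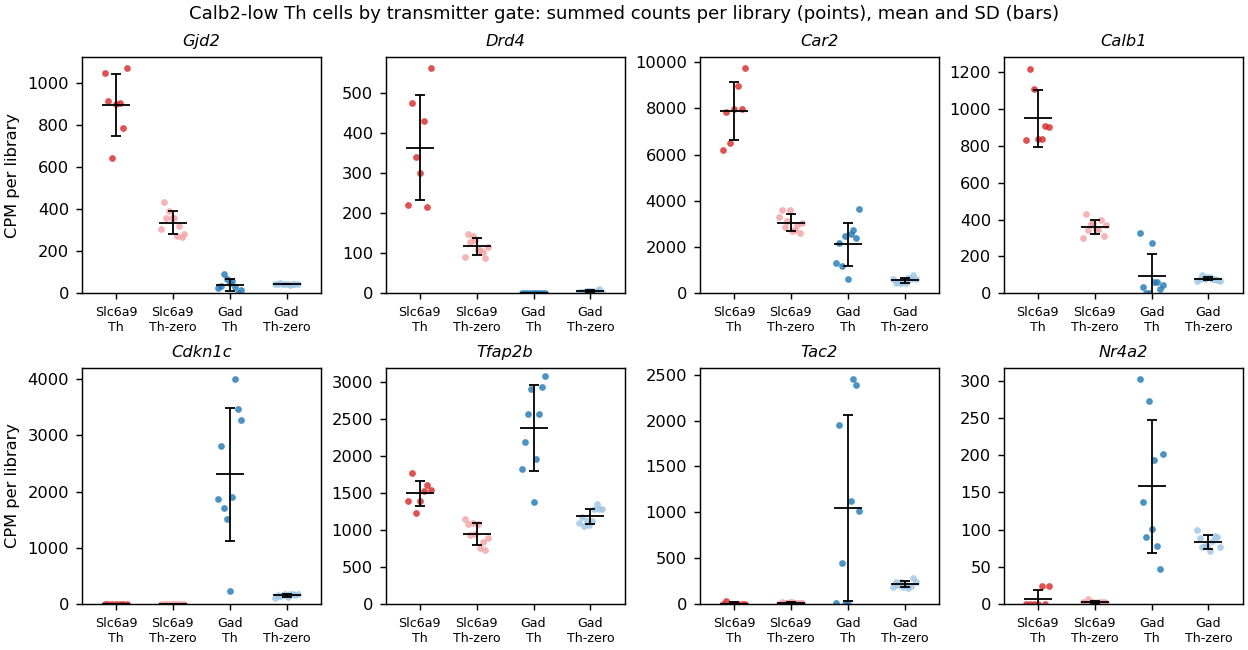
CPM per library of 8 genes in Slc6a9-gated Calb2-low Th cells (7 libraries), Slc6a9-gated Th-zero cells (10), Gad-gated Calb2-low Th cells (9) and Gad-gated Th-zero cells (10), with means and SD bars. Gjd2, Drd4, Car2 and Calb1 are highest in the Slc6a9-gated Th cells, where Cdkn1c is at 0, and Cdkn1c and Tfap2b are highest in the Gad-gated Calb2-low cells.

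Calb2-low cells of the Slc6a9 gate were high in genes known from AII amacrine cells, the glycinergic relay of the rod pathway. They were compared in 52 cells of 7 libraries, and 204 of 848 genes differed from Slc6a9-gated Th-zero cells (24.1%), 112 higher (13.2%) and 92 lower (10.8%). Of the marker lists of other classes, the horizontal-cell list, with Calb1 and Tfap2b, summed to 2636 CPM in these Th cells against 1421 CPM in Slc6a9-gated Th-zero cells and vascular markers to 85.1 CPM (6 of 8 at 0) against 59.2 CPM, and their part in the result was not tested. Gjd2 was at 647, 909 and 1072 CPM in the Th cells (lowest, median and highest library), against 267, 339 and 435 CPM in Slc6a9-gated Th-zero cells, with no overlap (1.49 ± 0.12, edgeR adjusted p = 6.05e-12). Car2 was at 7878 ± 1251 against 3057 ± 354 CPM (1.45 ± 0.07), Drd4 at 363 ± 131 against 117 ± 20.4 CPM (1.70 ± 0.22) and Calb1 at 949 ± 154 against 361 ± 38.4 CPM (1.38 ± 0.11). Of the AII marker list 4 genes were tested and 3 were higher, with a median change of 0.86. All 4 voltage-gated channel genes tested were called, 3 of them higher, including Scn1a (1.23 ± 0.22) and Kcnma1 (1.24 ± 0.16). All 8 calcium-binding genes were called, 3 higher and 5 lower, with Pcp4 at 250 ± 148 against 1671 ± 640 CPM (-2.55 ± 0.17) and Hpca at -3.26 ± 0.34. Car3, a further carbonic anhydrase, had 0 UMIs in these Th cells and was at least 24.0-fold lower than in Slc6a9-gated Th-zero cells, at 255 CPM. Crabp1 (-3.68 ± 0.46), Cadm1 (-3.47 ± 0.32), Camk2n1 (-2.92 ± 0.20) and the factor Ebf1 (-2.47 ± 0.30) were lower in 7 of 7 libraries.

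The genes that complete dopamine synthesis, packaging and reuptake were not detected in the Slc6a9-gated Th cells. Slc18a2, Slc6a3, Ddc, Gch1 and Crhr2 had 0 UMIs in all 58 cells, which allows a share of up to 5.17% for each. Th, which chose the cells, was at 541 ± 89.0 CPM there (n = 7 libraries) and at 554 ± 129 CPM in Calb2-high cells (n = 10). These levels depend on the rule of 2 UMIs and on depth, so they do not compare Th expression. Exactly 2 Th UMIs were held by 37 of the 58 cells and by 37 of 134 Calb2-high cells. The median depths of the 2 groups were 4619.5 and 9578.5 UMIs. Across the Slc6a9 gate, after thinning, a Th UMI was held by 7.53% of 969 cells with at least 2 Gjd2 UMIs, against 0.325% of 1844 cells without Gjd2, and by 1.82% of all cells. By library these shares were 7.76% ± 3.45 (2.38% to 14.7%) with Gjd2, against 0.445% ± 0.594 (0% to 1.32%) without it (SD, n = 10), and the libraries did not overlap. The median depths before thinning were 4889 and 4037.5 UMIs. Of starburst cells, taken as cells with at least 2 Chat UMIs, 0 of 307 held a Th UMI after thinning, at a median depth of 8214 UMIs before thinning. The Gjd2 and Chat classes were set after the data had been seen, and their shares carry no test. The Gjd2 shares restate the Gjd2 difference above in overlapping cells and are not separate support for it.

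Calb2-low cells of the Gad gate were marked by Cdkn1c, the gene of a cyclin-dependent kinase inhibitor. In 51 cells of 9 libraries 111 of 875 genes differed from Gad-gated Th-zero cells (12.7%), 57 higher (6.51%) and 54 lower (6.17%). Markers of other classes moved with this group: Müller glia markers summed to 1668 CPM in the Gad-gated Calb2-low cells (3 of 9 at 0, among them Slc1a3 and Aqp4) against 1290 CPM in Gad-gated Th-zero cells. Of these, Glul was called higher (0.90 ± 0.11) and Dkk3 was not called. The horizontal-cell list stood at 2599 against 1417 CPM, and cells carrying markers of other classes made up 90.4% against 47.2%. The part of these markers in the result was not tested. Cdkn1c was at 225, 1907 and 4006 CPM in the Th cells (lowest, median and highest library), against 103, 161 and 185 CPM in Gad-gated Th-zero cells, higher in 9 of 9 libraries (3.74 ± 0.23, edgeR adjusted p = 2.90e-09). The lowest, library 6, was also the library whose Gad-gated Calb2-low cells held Calb2-high genes, with 676 CPM of Tpbg and 225 CPM of Lhx2. Without library 6, 173 of 1155 genes tested were called. Car2 (1.90 ± 0.15), the granin gene Chgb (1.18 ± 0.11), the GABA transporter gene Slc6a11 (1.12 ± 0.15) and Tfap2b (0.98 ± 0.11) rose, and Vip (-5.96 ± 0.36), Rph3a (-2.32 ± 0.33), Id4 (-1.80 ± 0.25) and Kcna6 (-1.71 ± 0.22) fell. Tac2, at 1042 ± 1013 against 216 ± 36.3 CPM, was higher in 6 of 9 libraries (1.97 ± 0.50, edgeR adjusted p = 0.0115), and that call was lost without library 7 or library 8. When at least 3 Th UMIs were required, 1 gene of 909 tested was called in this comparison.

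The Gad-gated Calb2-low cells held Nr4a2 and Cdkn1c more often than the Calb2-high cells, a description with no test. Nr4a2 was in 40.4% of 52 Gad-gated Calb2-low cells after thinning, against 1.6% of Calb2-high and 13.3% of Gad-gated Th-zero cells. At least 1000 CPM of Cdkn1c was reached by 31 of 52 Gad-gated Calb2-low cells (59.6%), by 5 of 134 Calb2-high cells (3.73%), by 0 of 58 Slc6a9-gated Calb2-low cells and by 637 of 15994 Gad-gated Th-zero cells (3.98%). Of Gad-gated cells at that Cdkn1c level, 7.29% of 576 held a Th UMI after thinning, against 1.33% of 11830 Gad-gated cells below it, at median depths of 7005 and 6482 UMIs before thinning. By library these shares were 6.94% ± 2.90 (4.35% to 13.9%) at that level, against 1.38% ± 0.293 (0.836% to 1.84%) below it (SD, n = 10). That level was chosen after the data had been seen, and the shares carry no test. They restate the Cdkn1c difference above in overlapping cells and are not separate support for it.

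Other genes of the dopamine and corticotropin-releasing hormone lists were at low levels, given as pooled CPM. Crh, which encodes that hormone, stood at 0 in Calb2-high and 3.0 CPM in Calb2-low cells (0 and 4 UMIs), against 5.80 CPM in Gad-gated Th-zero cells. Its binding protein gene Crhbp stood at 1.52 and 0 CPM (2 and 0 UMIs) in Calb2-high and Calb2-low cells, against 1.14 CPM in Gad-gated Th-zero cells. Drd1, a dopamine receptor gene, stood at 32.8 and 24.0 CPM in Calb2-high and Calb2-low cells against 35.4 CPM in Gad-gated Th-zero cells, and Drd2, the autoreceptor gene of dopamine cells, at 0 and 1.5 CPM (0 and 2 UMIs) against 0.0751 CPM. The Drd2 difference in Calb2-low cells did not pass (edgeR adjusted p = 0.0603, no low-count filter). Slc10a4, a vesicular transporter found with monoamine and cholinergic vesicles, stood at 0 and 0.75 CPM (0 and 1 UMIs) in Calb2-high and Calb2-low cells against 7.63 CPM, and was called lower in both (edgeR adjusted p = 0.000308 and 0.0128, no low-count filter). Maoa stood at 30.5 and 34.5 CPM in Calb2-high and Calb2-low cells against 20.4 CPM. In Calb2-low cells without the 4 Ddc-positive ones it stood at 19.1 CPM. These genes were too sparse for the filtered test.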

How the data were processed

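The authors deposited 1 table of raw counts, whole-number UMIs per gene symbol and cell, for 10 libraries. The build mm10 and Cell Ranger 2.1.0 are named per the submitters' processing notes. Which annotation, cell filters and doublet removal they applied is not given in the sources used here, and no doublet caller was run. No cell or column of the table was left out. Members and gene lists were chosen with earlier results of these data known.

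The deposited counts were summed per library and group, leaving out sums of fewer than 5 cells (3 for the subsets of Calb2-low cells by transmitter gate). Sums of the 3 main groups were tested in 1 fit with edgeR 4.0.16 in R 4.3.3 (library as a block, filterByExpr, TMM factors, the quasi-likelihood test, and a threshold of 0.05 on p-values adjusted over all genes tested by Benjamini and Hochberg's method). Library is a block because both groups of a comparison come from the same capture. Subset comparisons, added after seeing the data, used a filter of 10 counts at the median size of the smaller group's sums in place of filterByExpr, which had been planned. The rule genes Th, Calb2, Gad1, Gad2 and Slc6a9 were left out of the counts of genes called. SE is the log2 change divided by the square root of F. CPM is a gene's UMIs per 1000000 UMIs of a sum.

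The text names the 10 genes with the largest change per direction among those called, at 50 CPM or more in the higher group and changed alike in every library, and members of the lists (at most 4 called members for lists outside dopamine, GABA and peptide-hormone handling), from which some were left out for space; a few genes are not reported here. Shares were taken after thinning each cell to 3000 UMIs; shallower cells were left out, 9 Calb2-high, 11 Calb2-low, 3962 Gad-gated Th-zero and 1546 Slc6a9-gated Th-zero cells. Intervals are exact binomial (Clopper-Pearson), and a count of 0 allows 3 counts of the total. On simulated counts with known changes, the fits recovered 69% to 93% of 2-fold and 100% of 4-fold changes, with 4 to 7 false calls per fit. The simulation gave every gene the same dispersion and had no library effect. Recovery at the spread of the real sums was not tested. Positions are from GRCm38, the assembly of mm10, and promoters from RefSeq (5 of 5 symbols matched); Calb2 was not shown.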

Additional observations from a re-analysis of the deposited data

Results flagged for a closer look

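Of 62 sets of library values tested for a library that stands apart from the rest (Dixon's test at 95%), 8 were picked out, and chance picks about 1 in 20. In Calb2-high Th cells, Dio2 reached 229 CPM in library 5, with the next library at 91.3 CPM. Crhr2 was at 80.4 CPM in library 1, the lowest, with the next at 159 CPM, and Npy at 80.2 CPM in library 4, with the next at 42.6 CPM. In Slc6a9-gated Calb2-low Th cells, A930001A20Rik was at 21.5 CPM in library 7 and at 0 elsewhere, Crabp1 at 166 CPM in library 3 with the next at 30.8 CPM, and Cadm1 at 185 CPM in library 6 with the next at 71.8 CPM. In Gad-gated Calb2-low Th cells, Vip was at 31.1 CPM in library 8 with the next at 12.1 CPM, and Id4 at 205 CPM in library 5 with the next at 100 CPM. Leaving out each of these libraries in turn kept the call of the gene it stands out for.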

How the results depend on the processing

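Library served as the replicate block, since both groups of a comparison come from the same library. Without the block 834 genes in place of 940 were called for Calb2-high and 532 in place of 633 for Calb2-low cells against Gad-gated Th-zero cells, 818 in place of 893 for Calb2-high against Calb2-low cells, and 195 in place of 204 and 146 in place of 111 for the Slc6a9-gated and Gad-gated Calb2-low cells. Several settings moved the counts by over 1.5 times. With no low-count filter they were 1751, 1250, 1342, 672 and 920 in the same order of comparisons. The genes tested then numbered 19965, 19965, 19965, 17587 and 19933, against 3740, 3740, 3740, 848 and 875 in the main fits. Fits of the compared pair alone called 1707 of 10152 genes tested for Calb2-high and 1100 of 11278 for Calb2-low cells. For Calb2-high minus Calb2-low cells they called 668 of 2869, which is fewer than the 893 above. These settings shifted the higher and lower calls: 560 and 1191 with no filter and 633 and 1074 in the pair fit for Calb2-high cells, against 487 and 453; 470 and 780, and 396 and 704, for Calb2-low cells, against 320 and 313; 75 and 597 for Slc6a9-gated cells, against 112 and 92; and 143 and 777 for Gad-gated cells, against 57 and 54. With no filter the median change of all genes shifted by -0.34, -0.24, -0.66 and -0.62 in these comparisons. With at least 3 Th UMIs the 5 counts were 597, 197, 420, 72 and 1, of 2657, 2657, 2657, 441 and 909 genes tested. With Gad-gated Th cells only, 306 of 3226 genes tested were called for Calb2-low and 402 of 3226 for Calb2-high against Calb2-low cells. Without cells that carry markers of other classes, 587 of 1953 genes tested were called for Calb2-high cells, against 940 of 3740 in the main fit. That setting could not be fitted for the Gad-gated Calb2-low cells, of which it removes 90.4%. Within batch 3, 589 of 3405 genes tested were called for Calb2-high and 185 of 1611 for Gad-gated Calb2-low cells. Within batch 2, 341 of 3948 were called for Calb2-low and 525 of 3948 for Calb2-high against Calb2-low cells. Slc6a9-gated and Gad-gated cells gave 49 of 547 and 19 of 581 in batch 2. With sums of at least 5 cells, 196 of 1862 genes tested were called for the Gad-gated cells. Leaving out each library in turn gave 811 to 929, 546 to 625, 789 to 878, 152 to 214 and 88 to 173 genes. The cause of these shifts was not tested, though fewer cells entered several of them and the number of genes tested also changed.

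Directions turned for a few genes. Against Gad-gated Th-zero cells, Calb2-low cells gave Gjd2 -0.35, Grin1 -0.11 and Kcnma1 -0.000349 with Gad-gated Th cells and Grin2b 0.089 at 3 Th UMIs. Between Calb2-high and Calb2-low cells, leaving out cells that carry markers of other classes gave Calb1 -0.061, Npy 1.14, Rims1 0.37 and Slc6a11 1.79, and Gad-gated Th cells gave Gjd2 1.05. The share of Th cells was 2.59% at 1 UMI, 0.496% at 3 UMIs and 0.559% after thinning. The Slc6a3 share differed by 11.1 points without thinning. Leaving out each library gave -2.69 to -1.30 points for Ddc and 0.781 to 1.82 points for Slc6a3. With 3000 UMIs per cell, genes at a few CPM, such as Ddc and Slc6a3, are at the limit of detection.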
